A study of Mus musculus with 22 samples.

Results

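The genes described here are 7 genes of MHC class II antigen presentation: H2-Aa, H2-Ab1 and H2-Eb1, which encode chains of the class II molecules themselves, Cd74, the invariant chain, H2-DMa, a chain of the peptide-exchange factor, and the lysosomal proteases Ctss and Ctsh. They were given as a list of gene names, and their measurements were all probe sets that the platform annotation pairs with exactly 1 of them. That gave 8 probe sets out of 10833 with 1 gene, and 7 genes out of 8251. H2-DMa had 2 probe sets and each other gene had 1. A filter on mean signal over all arrays kept 7 of the 8, 1 for each gene, among the 6211 probe sets tested. The other H2-DMa probe set was dim and is described without a test in the fit. The lowest reading of a tested member on any array was a log2 signal of 8.03 (H2-Aa), above the filter at 7.67, so no member was tested only because of the group in which it was high.

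The study measured messenger RNA in back skin of wild-type mice and of their K14-DN-Clim transgenic littermates (labelled DN-CLIM) on 22 single-colour arrays. DN-CLIM blocks the CLIM cofactors, which LIM domain transcription factors need, and it is driven by the keratin 14 promoter, which is active in basal keratinocytes and not in the leukocytes that make most class II in skin. Postnatal day 6 (P6) had 5 arrays of each genotype, and P14 and P23 had 3 of each. All mice were of the CB6F1 strain, both genotypes alike. Follicles grow at P6 and P14 and rest, in the first telogen, at P23. No label says which mouse or mice an array stands for, so p-values measure the spread between these arrays. The tissue label was set beside markers: the 8 tested keratinocyte genes had a mean log2 signal of at least 12 and at most 13.89 on the 22 arrays. Tested genes had passed the filter on signal, so a high mean was partly set by that choice. On the wild-type P23 arrays dermal fibroblast genes read 12.78 to 12.83, above the keratinocyte genes at 12.22 to 12.3.

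Class II molecules are heterodimers of an alpha and a beta chain that carry peptides from endocytosed proteins to the surface of dendritic cells, Langerhans cells, macrophages and B cells, where CD4+ T cells read them. The invariant chain (Cd74) blocks the groove of a new heterodimer and steers it to the endosome, cathepsin S (Ctss) trims that chain to a short fragment, and the DM dimer (H2-DMa with a DM beta chain) exchanges the fragment for a peptide. Their genes are commonly switched on together by the transactivator CIITA through conserved promoter elements, the X and Y boxes, and interferon gamma raises them in many other cell types.

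In the RefSeq annotation of GRCm38.p6, 4 of the members lie close together in the H2 complex of chromosome 17: H2-DMa at chr17:34119693-34139101, H2-Ab1 at chr17:34263227-34269418, H2-Aa at chr17:34282744-34287823 and H2-Eb1 at chr17:34305867-34316674. Ctss lies at chr3:95526786-95556405 and Ctsh at chr9:90054267-90076095. Promoter windows of 300 bases (250 before and 50 from an annotated start) were taken from a RefSeq table of the same build, which holds 32851 windows and matched 4 of the 7 members: H2-Aa, H2-Eb1, Ctss and H2-DMa, the last with 2 windows. They were searched on both strands for the X box core AACNGATG and the Y box core GATTGG, which do not overlap each other. Over all windows, 2.32% held the X core, 16.11% held the Y core, and 0.09% (30 windows) held X followed by Y on 1 strand. The 2 H2-DMa windows, chr17:34122582-34122881 and chr17:34125268-34125567, lie inside the gene span given above. Positions in them are therefore not counted from the first base of that span.

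Among the 4 members with a window, H2-Eb1 held both cores in that order. Its X core began at -89 and its Y core at -60 from the gene start, 29 bases apart. The windows of 3 related genes that are not members, H2-Eb2 (a second E beta gene) and H2-DMb1 and H2-DMb2 (the DM beta chains), held the same pair at distances of 29, 30 and 30 bases. H2-Aa held a Y core alone at -49, and Ctss held an X core alone at -207. The second H2-DMa window held a Y core at -199 from the start that this window uses, inside the gene span. The first H2-DMa window held neither. The stretches below show this arrangement, 5′ to 3′ on the strand of the gene, with the cores in capitals. They lie at chr17:34305763-34305852 (H2-Eb1), chr17:34325530-34325594 (H2-Eb2), chr17:34153084-34153149 (H2-DMb1) and chr17:34145113-34145178 (H2-DMb2) on the plus strand, at chr17:34287852-34287887 on the minus strand (H2-Aa) and at chr3:95526564-95526601 on the plus strand (Ctss).
H2-Eb1: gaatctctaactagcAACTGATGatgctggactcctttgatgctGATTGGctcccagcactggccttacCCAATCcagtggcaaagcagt
H2-Eb2: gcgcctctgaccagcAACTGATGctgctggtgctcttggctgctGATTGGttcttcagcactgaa
H2-DMb1: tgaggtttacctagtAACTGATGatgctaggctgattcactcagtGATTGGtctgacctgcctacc
H2-DMb2: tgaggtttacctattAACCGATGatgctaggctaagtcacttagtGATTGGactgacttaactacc
H2-Aa: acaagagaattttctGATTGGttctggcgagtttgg
Ctss: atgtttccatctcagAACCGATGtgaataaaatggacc
The last capitals of H2-Eb1 are a Y core on the other strand. H2-DMb1 and H2-DMb2 were identical at 57 of the 66 bases shown. A match of these letters is a description of the sequence and not evidence of binding. Only exact matches were searched, so a window without a match may still hold a variant of that core.

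**Figure D1:**
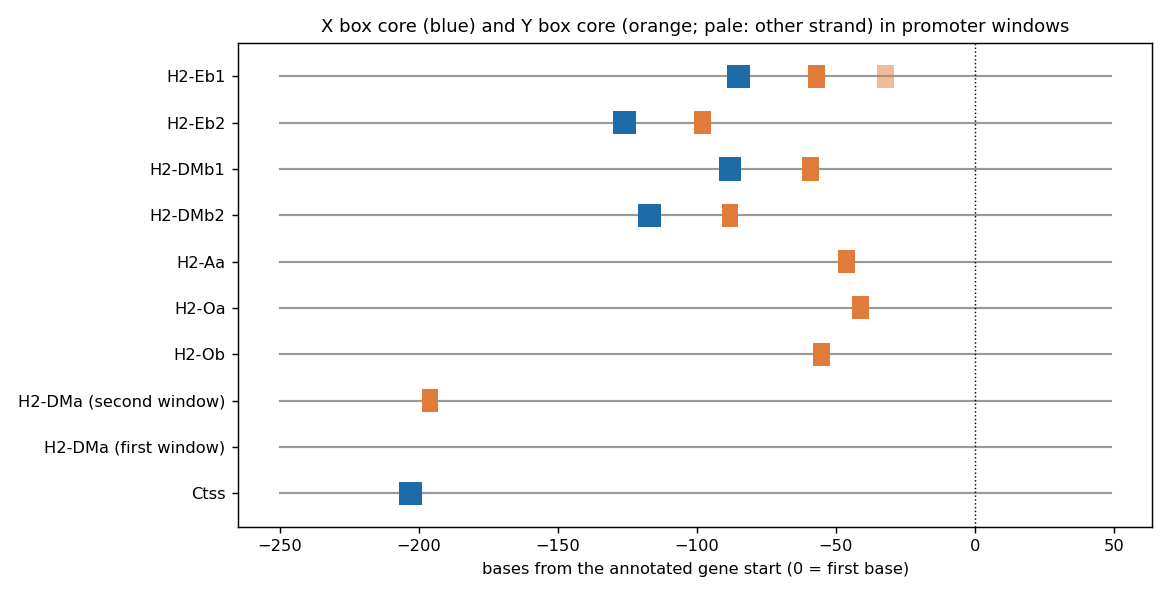
Positions of the X box core (blue) and the Y box core (orange, pale where on the other strand) in promoter windows of class II genes and Ctss. The horizontal axis is the distance in bases from the annotated start that each window uses, and each row is 1 window. For H2-DMa these starts lie inside the gene span. The X core is followed by the Y core at 29 or 30 bases in H2-Eb1, H2-Eb2, H2-DMb1 and H2-DMb2, and the other windows hold 1 core or none.

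The main change in these genes was with age, in both genotypes. From P6 to P23 all 7 tested members rose in wild-type skin (25.7% of all tested probe sets were called higher) and all 7 rose in transgenic skin (26.7%), by the adjusted p of limma at 0.05. Their median log2 difference was 2.25 in both genotypes, beside -0.03 in wild type and 0.00 in transgenic skin over all tested probe sets. Cd74, H2-Aa, H2-Ab1, H2-Eb1 and Ctss rose 4.47-fold to 7.66-fold, and H2-DMa and Ctsh rose 1.44-fold to 2.01-fold. The genotypes did not differ past the threshold at any age for any member. In whole skin, more cells of a type and more RNA per cell cannot be told apart.

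H2-Aa encodes the alpha chain of the A heterodimer. Its values, like those of the members below, are log2 signals listed array by array. At P6, H2-Aa read 9.46, 9.33, 9.03, 9.15 and 9.29 on the wild-type arrays and 9.37, 9.08, 9.35, 8.81 and 8.03 on the transgenic arrays. At P14, H2-Aa read 10.40, 10.05 and 10.22 on the wild-type arrays and 10, 10.01 and 9.59 on the transgenic arrays. At P23, H2-Aa read 11.73, 11.74 and 11.85 on the wild-type arrays and 11.98, 11.72 and 11.89 on the transgenic arrays. In wild type the 3 ages did not overlap, and in transgenic skin they did not either. The mean rose from 9.25 ± 0.17 (SD, n = 5) to 11.77 ± 0.07 (SD, n = 3) in wild type, a log2 difference of 2.52 (SE 0.21, adjusted p = 1e-09 in limma), which is 5.73-fold. In transgenic skin it rose from 8.93 ± 0.55 (SD, n = 5) to 11.86 ± 0.13 (SD, n = 3), a log2 difference of 2.94 (SE 0.21, adjusted p = 7.9e-11). Transgenic replicate 5 at P6, at 8.03, lay lowest of all 22 arrays.

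H2-Ab1 encodes the beta chain that pairs with H2-Aa. At P6, H2-Ab1 read 8.73, 8.78, 8.97, 8.46 and 9.09 on the wild-type arrays and 8.56, 8.79, 8.83, 8.26 and 9.33 on the transgenic arrays. At P14, H2-Ab1 read 9.66, 9.54 and 9.22 on the wild-type arrays and 9.29, 9.33 and 9.27 on the transgenic arrays. At P23, H2-Ab1 read 11.20, 10.92 and 10.88 on the wild-type arrays and 10.97, 10.75 and 11.02 on the transgenic arrays. The P23 arrays of both genotypes lay above every earlier array. At P14 the wild-type arrays lay above those at P6, while the transgenic arrays overlapped with replicate 5 at P6, which read 9.33 and was the highest of its group. From P6 to P23 the log2 difference was 2.20 (SE 0.18, adjusted p = 7.5e-10 in limma) in wild type and 2.16 (SE 0.18, adjusted p = 9.6e-10) in transgenic skin.

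H2-Eb1 encodes the beta chain of the E heterodimer, and its promoter window is the one shown above with both cores. At P6, H2-Eb1 read 9.23, 9.45, 9.76, 9.41 and 8.48 on the wild-type arrays and 9.19, 8.61, 9.42, 8.81 and 9.28 on the transgenic arrays. At P14, H2-Eb1 read 10.02, 9.69 and 9.78 on the wild-type arrays and 9.80, 9.87 and 10.04 on the transgenic arrays. At P23, H2-Eb1 read 11.56, 11.42 and 11.56 on the wild-type arrays and 11.46, 11.28 and 11.47 on the transgenic arrays. The P23 values of both genotypes lay between 11.28 and 11.56, above every earlier array. The P6 values were widely spread, from 8.48 to 9.76 in wild type, and overlapped with P14 in that genotype. From P6 to P23 the log2 difference was 2.25 (SE 0.20, adjusted p = 5.1e-09 in limma) in wild type and 2.34 (SE 0.20, adjusted p = 2.7e-09) in transgenic skin.

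Cd74, the invariant chain, had the largest log2 difference of the 7 members from P6 to P23 in wild type. At P6, Cd74 read 10.65, 10.63, 10.40, 10.05 and 10.38 on the wild-type arrays and 10.44, 10.25, 10.70, 10.03 and 9.34 on the transgenic arrays. At P14, Cd74 read 11.91, 11.32 and 11.26 on the wild-type arrays and 10.91, 11.48 and 11.14 on the transgenic arrays. At P23, Cd74 read 13.20, 13.01 and 12.94 on the wild-type arrays and 13, 12.78 and 13.08 on the transgenic arrays. No wild-type array of 1 age overlapped with another age, and no transgenic array did. The mean in wild type went from 10.42 ± 0.24 (SD, n = 5) through 11.5 ± 0.36 (SD, n = 3) to 13.05 ± 0.13 (SD, n = 3). The log2 difference from P6 to P23 was 2.63 (SE 0.22, adjusted p = 1.4e-09 in limma), or 6.2-fold, and in transgenic skin 2.8 (SE 0.22, adjusted p = 4.9e-10), or 6.96-fold.

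**Figure D2:**
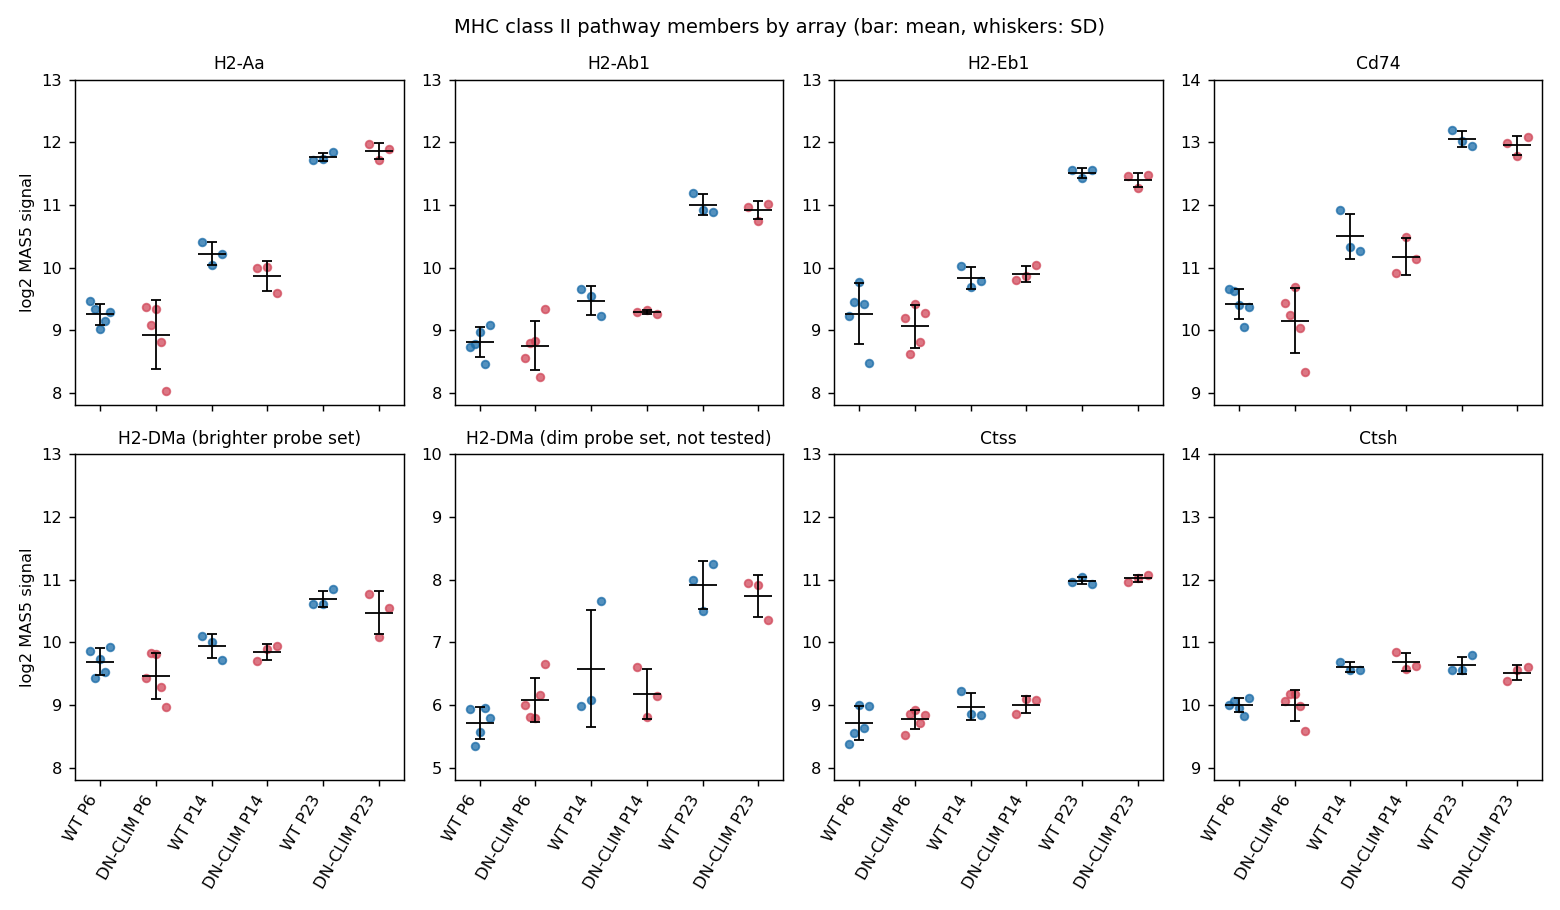
Log2 MAS5 signal (vertical axis) of the 8 member probe sets on every array, by genotype (wild type blue, DN-CLIM red) and age; points are arrays, bars are group means and whiskers are SD, with the same axis span but different limits between panels. H2-Aa, H2-Ab1, H2-Eb1, Cd74 and Ctss stand apart at P23 in both genotypes, while Ctsh is higher at P14 and P23 alike.

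H2-DMa encodes the alpha chain of the DM dimer. At P6, H2-DMa read 9.85, 9.43, 9.73, 9.52 and 9.93 on the wild-type arrays and 9.44, 9.83, 9.80, 9.28 and 8.97 on the transgenic arrays. At P14, H2-DMa read 10.10, 10 and 9.72 on the wild-type arrays and 9.70, 9.89 and 9.94 on the transgenic arrays. At P23, H2-DMa read 10.62, 10.61 and 10.85 on the wild-type arrays and 10.77, 10.09 and 10.55 on the transgenic arrays. The wild-type P23 arrays lay above all earlier ones, and the transgenic P23 arrays, from 10.09, lay above the earlier transgenic arrays by a small margin. Its log2 difference from P6 to P23 was 1.0 (SE 0.18, adjusted p = 5.9e-05 in limma) in wild type and 1.01 (SE 0.18, adjusted p = 5.3e-05) in transgenic skin, or 2.0-fold and 2.01-fold. The dim H2-DMa probe set, whose mean was at the 36.2 percentile of all probe sets against 84.0 for the brighter, gave larger differences. At P6, this probe set read 5.93, 5.34, 5.56, 5.94 and 5.79 on the wild-type arrays and 6.0, 5.81, 5.79, 6.15 and 6.65 on the transgenic arrays. At P14, this probe set read 5.99, 6.08 and 7.66 on the wild-type arrays and 6.60, 5.80 and 6.14 on the transgenic arrays. At P23, this probe set read 7.99, 7.51 and 8.25 on the wild-type arrays and 7.95, 7.91 and 7.36 on the transgenic arrays. With no filter on signal its log2 difference from P6 to P23 was 2.20 (SE 0.34, adjusted p = 2.3e-05 in limma) in wild type and 1.66 (SE 0.34, adjusted p = 0.00055) in transgenic skin, so the 2 probe sets matched in direction and not in size. The identifier of the dim one ends in _f_at, which in the maker's naming marks a probe set that may detect several related sequences, so its values may not be those of H2-DMa alone.

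Ctss encodes cathepsin S, the protease that finishes the trimming of the invariant chain. At P6, Ctss read 8.38, 8.55, 9.0, 8.63 and 8.99 on the wild-type arrays and 8.52, 8.85, 8.92, 8.71 and 8.84 on the transgenic arrays. At P14, Ctss read 9.22, 8.85 and 8.84 on the wild-type arrays and 8.85, 9.09 and 9.08 on the transgenic arrays. At P23, Ctss read 10.97, 11.04 and 10.93 on the wild-type arrays and 10.96, 11.02 and 11.08 on the transgenic arrays. P6 and P14 overlapped in both genotypes, and all 6 P23 arrays lay between 10.93 and 11.08, far above the rest. Nearly all of its change therefore fell between P14 and P23, where the log2 difference was 2.01 (SE 0.15, adjusted p = 3.5e-10 in limma) in wild type and 2.02 (SE 0.15, adjusted p = 3.6e-10) in transgenic skin. From P6 to P14 it was 0.26 (SE 0.14, adjusted p = 0.19) and 0.24 (SE 0.14, adjusted p = 0.20).

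Ctsh encodes cathepsin H, an aminopeptidase of lysosomes found in many cell types. At P6, Ctsh read 10, 10.07, 9.95, 9.82 and 10.12 on the wild-type arrays and 10.06, 10.17, 10.18, 9.98 and 9.58 on the transgenic arrays. At P14, Ctsh read 10.69, 10.56 and 10.56 on the wild-type arrays and 10.85, 10.58 and 10.62 on the transgenic arrays. At P23, Ctsh read 10.55, 10.56 and 10.79 on the wild-type arrays and 10.39, 10.56 and 10.60 on the transgenic arrays. All P14 and P23 arrays lay above all P6 arrays, and P14 and P23 overlapped. Its change fell between P6 and P14, at a log2 difference of 0.61 (SE 0.12, adjusted p = 0.00075 in limma) in wild type and 0.69 (SE 0.12, adjusted p = 0.00021) in transgenic skin. From P14 to P23 it was 0.03 (95% interval -0.24 to 0.31) in wild type, -0.10 after subtracting each array's median, and -0.17 (-0.44 to 0.11) in transgenic skin.

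The calls between neighbouring ages were not the same for each member. From P6 to P14, 4 of the 7 rose in wild type (9.43% of tested probe sets were called higher), namely Cd74 (1.08), Ctsh (0.61), H2-Aa (0.97) and H2-Ab1 (0.67). In transgenic skin 5 of 7 rose (12.1%), namely the same 4 genes and H2-Eb1 (0.84). H2-Eb1 in wild type had a log2 difference of 0.56 and an adjusted p of 0.053 in limma, and it passed without wild-type replicate 3 at P6 (0.018). The H2-Ab1 call was the least stable: in wild type it was lost without P14 replicate 1 (adjusted p = 0.062), and in transgenic skin (0.54, adjusted p = 0.027) it was lost without P6 replicate 1 or 4 or any P14 replicate (up to 0.085).

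From P14 to P23, 6 of the 7 rose in wild type (27% of tested probe sets were called higher) and 6 of 7 in transgenic skin (27.1%), with Ctsh as the exception in both. The rises of H2-Aa, H2-Ab1, H2-Eb1, Cd74 and Ctss were 1.53 to 2.01 in wild type and 1.5 to 2.02 in transgenic skin on the log2 scale. H2-DMa rose by 0.75 (adjusted p = 0.0029 in limma) and 0.63 (adjusted p = 0.011), the latter lost without transgenic P23 replicate 1 (0.071). Both steps use the same P14 arrays and are not independent of each other.

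For 2 pairs of members, picked after their values were seen, the difference in change from P14 to P23 is given as a description, with no test. Ctss rose by 1.98 more than Ctsh in wild type and 2.18 more in transgenic skin on the log2 scale, and H2-Aa by 0.79 and 1.37 more than H2-DMa. Because signals of different probe sets may scale differently with RNA, these are differences between probe sets.

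All 7 members also passed from P6 to P23 when the arrays were scaled in another way. Subtracting each array's median shifted the median of all tested probe sets from P6 to P23 by -0.10 in wild type and -0.15 in transgenic skin, and by -0.13 from P14 to P23 in wild type. The share of calls that were higher then fell from 49.9% to 39.3% for P14 to P23 in wild type, from 45% to 31.9% for P6 to P14 in transgenic skin and from 48.6% to 35.5% for P6 to P23 in transgenic skin. The members' differences from P6 to P23 in wild type were 2.53 (Cd74) and 2.17 (Ctss) with that scaling, down to 0.54 (Ctsh).

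The transgene made no difference past the threshold in these genes. At P6, 0 of 7 members were called in limma (0.0322% of all tested probe sets were called), at P14 0 of 7 (0.0644%), at P23 0 of 7 (0.161%), and 0 of 7 with the 3 ages averaged (0.177%). At an unadjusted p under 0.05 the count was also 0 of 7 in each of these, beside 508, 389, 284 and 436 of all 6211. The log2 differences, transgenic minus wild type, ran from -0.33 to 0.06 at P6, from -0.36 to 0.08 at P14 and from -0.22 to 0.09 at P23.

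Averaged over the ages, the interval of the genotype difference was narrowest for the proteases. Ctsh was at -0.01 (95% interval -0.16 to 0.14) and turned to 0.02 with array weights, and Ctss was at 0.04 (-0.13 to 0.22). The class II chains were at -0.20 (-0.45 to 0.06) for H2-Aa, -0.11 (-0.33 to 0.11) for H2-Ab1 and -0.08 (-0.34 to 0.17) for H2-Eb1. Cd74 was at -0.23 (-0.51 to 0.04, adjusted p = 0.77 in limma) and H2-DMa at -0.18 (-0.40 to 0.04). These intervals leave room for a decrease of Cd74 by up to 0.51, so the values do not show equal levels.

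H2-Aa had the largest genotype difference of the members at P14, with transgenic arrays of 9.59 to 10.01 and wild-type arrays of 10.05 to 10.40. Its difference there was -0.36 (95% interval -0.84 to 0.12, adjusted p = 0.86 in limma). Its difference at P6, -0.33 over all 10 arrays, was uneven between arrays numbered 1 to 3 and those numbered 4 and 5. Within arrays 1 to 3 it was -0.01 and within arrays 4 and 5 it was -0.80 (adjusted p = 0.19). For Cd74 the same values were -0.10 and -0.53. Transgenic replicate 5 at P6 carried most of both: without it the P6 difference was -0.10 for H2-Aa and -0.07 for Cd74, in place of -0.27 for Cd74 over all 10 arrays.

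The genotype difference did not change with age past the threshold for any member in limma. For P14 against P6, 0 of 7 were called (0.0161% of tested probe sets were called), for P23 against P14 0 of 7 (0%), and for P23 against P6 0 of 7 (0.0161%). At an unadjusted p under 0.05 there were 0 of 7 each time, beside 416, 317 and 303 of all tested probe sets. The largest of these differences was that of H2-Aa, 0.45 (95% interval -0.22 to 1.13) for P23 against P14. Its difference was below 0 at P14 and above 0 at P23.

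**Figure D3:**
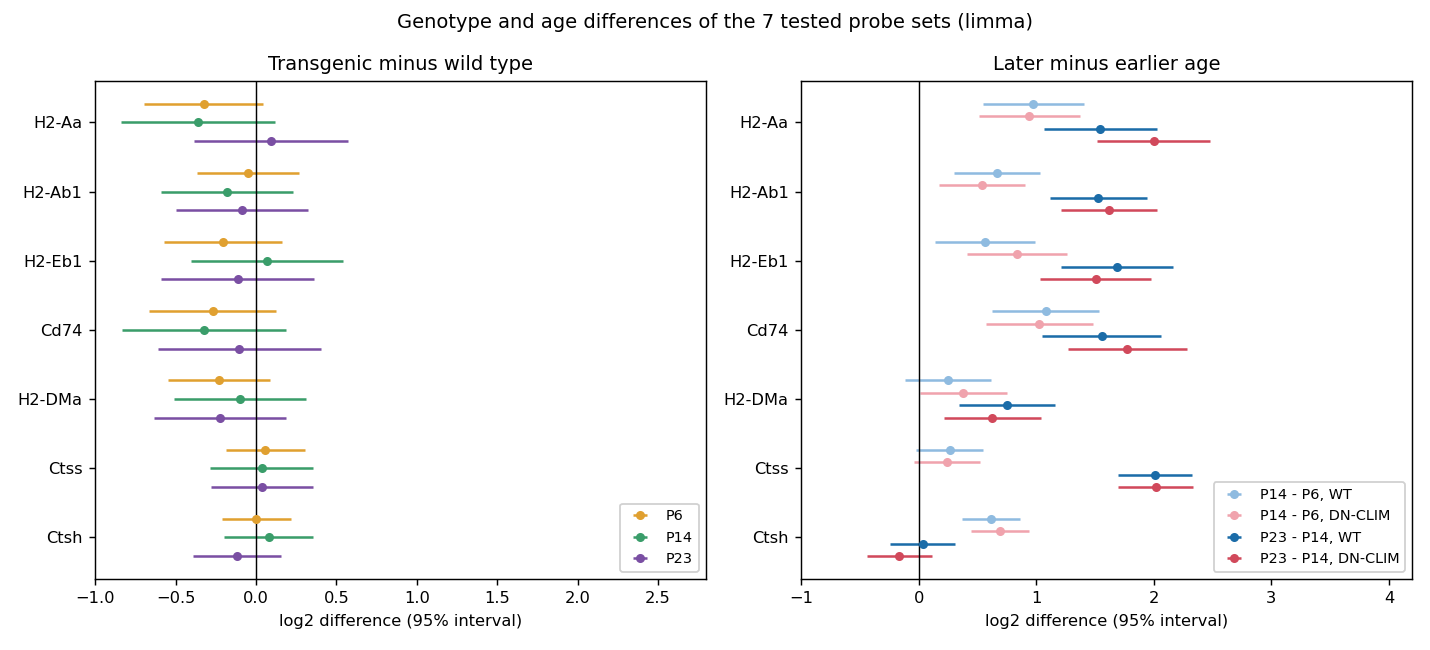
Log2 differences with 95% intervals (horizontal axis) of the 7 tested members: transgenic minus wild type at each age on the left, and later minus earlier age in each genotype on the right. Every interval on the left crosses 0, and on the right Ctss moves from P14 to P23 while Ctsh moves from P6 to P14.

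Other genes of the pathway moved in both directions. Of 29 listed, 25 were on the array and 15 were tested, and from P6 to P23 in wild type 6 rose and 3 fell (28.3% of tested probe sets were called lower), with a median of 0.14. In transgenic skin it was also 6 and 3 (28.2% called lower), with a median of 0.00. Among the partner chains, H2-Ea, the alpha chain that pairs with H2-Eb1, rose by 3.39 (SE 0.81, adjusted p = 0.0012 in limma). It reached the filter on mean signal only through its P23 readings, and it was also called with no filter. H2-DMb1, the beta chain that pairs with H2-DMa, rose by 1.99 (SE 0.43, adjusted p = 0.00052 in limma). H2-Ea was the least even of them, with P6 readings from 3.70 to 8.09 in wild type and from 4.0 to 7.73 in transgenic skin, and P23 readings of 9.53, 10.20 and 11.16 in wild type and 11.45, 11.06 and 10.61 in transgenic skin. H2-Ea is not expressed in mice of some H2 haplotypes. All mice here carry the label of 1 strain, CB6F1, and the cause of the uneven readings was not tested. The P6 and P23 readings of H2-DMb1 did not overlap in either genotype, at 6.22 to 8.33 against 9.17 to 9.79 in wild type.

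The proteases and their inhibitor moved in both directions. The asparaginyl endopeptidase gene Lgmn rose by 1.0 (adjusted p = 5.5e-05 in limma), Cst3, the inhibitor cystatin C, by 0.77, and Ifi30, the reductase that opens disulfide bonds of antigens, by 0.43. The call of Ifi30 was lost without wild-type P6 replicate 3 or P23 replicate 2 or 3 (adjusted p up to 0.086). Of the cathepsin genes outside the members, 3 fell: Ctsb by 0.75, Ctsl by 0.53 and Ctsc by 0.49, the last lost without wild-type P23 replicate 1 (0.063). Their course was not a steady fall: from P6 to P14 in wild type Ctsb rose by 0.95, Ctsl by 0.95 and Ctsc by 0.43 (adjusted p = 1.9e-05, 2.8e-06 and 0.035 in limma), and from P14 to P23 they fell by 1.70, 1.48 and 0.92. Ctsd was at -0.32 (adjusted p = 0.12), and 0.01 with quantile normalization. Of the regulators, Ciita was at 0.19 (SE 0.27, adjusted p = 0.58) and Nfya, a subunit of the factor that binds the Y box, rose by 0.48 (adjusted p = 0.0078). It was the only one called of the 5 tested regulators: the other subunits of that factor were at -0.10 (Nfyb, adjusted p = 0.62 in limma) and 0.14 (Nfyc, 0.19), and Rfxank, a subunit of the factor that binds the X box, was at -0.34 (0.20). In the genotype comparisons 0 of these 15 genes were called in limma, at any age or averaged. At an unadjusted p under 0.05 there was 1 at P14, beside 389 of all 6211 probe sets, and 0 in the others. That gene was H2-DMb1, at -1.13 transgenic minus wild type (SE 0.48, adjusted p = 0.72 in limma).

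Class I genes and interferon gamma targets rose over the same ages. Of 13 tested, 10 rose and 0 fell in wild type from P6 to P23 with a median of 1.2, and 12 rose and 0 fell in transgenic skin with a median of 1.18. The class I heavy chain genes H2-K1 and H2-D1 rose by 2.19 and 2.26 in wild type, and their light chain B2m by 2.26. Psmb8, an immunoproteasome subunit, rose by 2.40, and Tapbp (tapasin), which loads class I with peptide, by 1.63. Probe sets of the class I genes may share sequence with close relatives.

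Of the marker lists for cells that carry class II, the tested macrophage genes mostly rose from P6 to P23, and the tested dendritic cell genes moved in both directions. The part of these cells in the rise of the members was not tested. Of 12 tested macrophage and monocyte genes (26 listed), 11 rose and 0 fell from P6 to P23 in wild type, with a median of 1.04, and 10 rose and 0 fell in transgenic skin. Their summed signal was 9432 to 11059 on the wild-type P6 arrays, 7608 to 8623 at P14 and 20599 to 21467 at P23, and on the transgenic arrays 10650 to 11646, 7879 to 9696 and 20241 to 21400. Lyz2, lysozyme of myeloid cells, rose by 3.24, the mannose receptor gene Mrc1 by 1.83 and the complement gene C1qa by 1.74. From P6 to P14 in wild type 0 of these 12 rose and 6 fell (11.3% of tested probe sets were called lower), while 4 of the 7 members rose. In transgenic skin 0 rose and 3 fell in that step (14.7% called lower), while 5 of the 7 members rose.

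Markers of dendritic and Langerhans cells moved in both directions. Of 7 tested (20 listed), 3 rose and 1 fell from P6 to P23 in wild type, with a median of 0.22, and 3 rose and 1 fell in transgenic skin. Itgax (CD11c) rose by 1.05 and Epcam, which Langerhans cells and keratinocytes of the follicle share, by 0.97, Flt3 rose by 0.47, and the actin bundler gene Fscn1 fell by 0.98. The summed signal of the 7 was 5378 to 6120 at P6, 4898 to 5779 at P14 and 3704 to 4642 at P23 in wild type, and 4736 to 6057, 5380 to 5926 and 3840 to 4159 in transgenic skin. Ccl22 (-0.31), Batf3 (0.22) and Xcr1 (-0.10) were not called. Of the 20 listed markers, 16 were on the array and 7 were tested. Ly75 and Itgae, listed markers below the filter, were picked after their values were seen and do not stand for the list. Their means were 5.03 and 3.48 at P6 and 6.22 and 6.68 at P23 in wild type. Both were higher at P23. The remaining markers that were not tested are not shown, so no direction is given for the untested markers as a set.

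Of 8 tested genes of all leukocytes, 6 rose and 0 fell in wild type (median 0.89) and 6 and 0 in transgenic skin, with Cd52 at 1.96 and Lcp1 at 1.57. Their summed signal was 4392 to 5638 at P6, 4489 to 5814 at P14 and 7436 to 9348 at P23 in wild type, and 3741 to 5616, 5170 to 5591 and 8570 to 9395 in transgenic skin. The lists for B cells (1 of 3 tested genes rose) and T and NK cells (1 of 1, Thy1) rested on few tested genes. Genes of the other compartments also changed over these ages: 10 of 10 hair shaft and inner root sheath genes fell (median -6.80), 6 of 8 keratinocyte genes fell, and 11 of 12 muscle genes rose (median 1.92). The arrays report shares of the RNA, so a rise of the members was measured against this changing tissue. In the genotype comparisons 0 of the 111 tested genes of all lists were called in limma. At an unadjusted p under 0.05 there were 14 at P6, 8 at P14, 9 at P23 and 8 averaged. Over all 6211 tested probe sets these counts were 508, 389, 284 and 436.

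**Figure D4:**
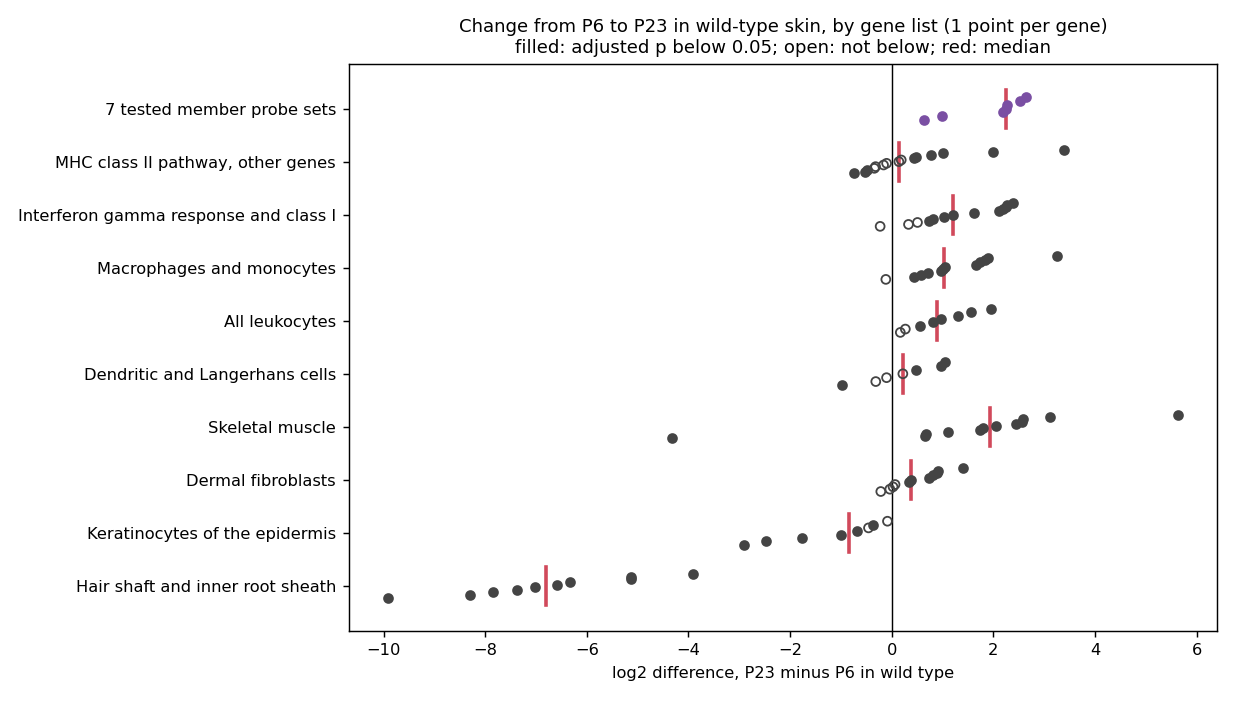
Log2 difference from P6 to P23 in wild-type skin (horizontal axis) of the 7 members and of the tested genes of 9 lists, 1 point per gene, filled where the adjusted p was below 0.05, with the list median as a red bar. The members have a median of 2.25, the other class II pathway genes 0.14, the macrophage list 1.04 and the hair list -6.80.

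Among the arrays of a group, the members did not all vary together. Over 22 arrays, after subtracting group means, Pearson's r was 0.82 between Cd74 and H2-Aa, 0.74 between H2-Aa and Ctsh and 0.64 between Cd74 and H2-DMa. It was -0.37 between H2-Ab1 and H2-Aa, the chains of 1 heterodimer, and -0.08 between H2-Ab1 and Cd74. These values lean on transgenic P6 replicate 5, where H2-Aa and Cd74 were the lowest of the group and H2-Ab1 the highest. Without it (21 arrays, a choice made after seeing the data) r was 0.31 between H2-Ab1 and H2-Aa, 0.61 between H2-Ab1 and Cd74, 0.62 between Cd74 and H2-Aa and 0.39 between H2-Aa and Ctsh. The points share arrays and their scaling, and these correlations are descriptions. That array had the lowest mean correlation with its group, 0.93, against 0.97 for the highest of the 22.

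The genes whose level was most like that of the class II chains and Cd74 over the 22 arrays came from several compartments of skin. The mean standardised signal of H2-Aa, H2-Ab1, H2-Eb1 and Cd74 correlated most with Serping1 (r = 0.98), the inhibitor of complement C1, and Tapbp (0.97), followed by Golga4 and Tgoln1 of the Golgi, Atp2a1 and Tpm2 of muscle, Aldh1a1, Acsl4, Mcl1 and Emb (0.97). The other members were at 0.95 (Ctss), 0.90 (H2-DMa) and 0.69 (Ctsh). Over the 6 group means in place of arrays, 2 of the 10 nearest genes were shared, and Casq1 of muscle came first. After group means were subtracted the nearest were Wdr48 (0.84), Mknk2 (0.83) and Eln (0.79), and the members fell to 0.53 (H2-DMa), 0.36 (Ctsh) and 0.17 (Ctss). The arrays share the course with age, and 0 of the 10 genes nearest by level were among the 10 nearest by deviation.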

How the data were processed

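RNA of back skin was measured on 22 single-colour arrays. Per the submitters' processing notes the authors made the values with MAS5 (release not given in the sources used here) and deposited 1 intensity per probe set and array on a linear scale. The 2% trimmed mean was 500.2 to 500.3 on every array. Of 12488 probe sets, 66 controls were left out, and 10833 paired with 1 gene, 396 with several and 1193 with none. Symbols were matched through Entrez identifiers for 10817.

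Intensities were used as log2 values without further normalization, since array medians ran from 7.56 to 7.80. Tested were probe sets whose mean log2 signal reached the median of such means (7.67). All 6 groups were fitted together with limma 3.58.1 in R 4.3.3 (eBayes with a trend, Benjamini-Hochberg over 6211 probe sets, threshold 0.05). The fit was checked on simulated data. No 2 arrays held identical values. The members and lists were chosen with earlier results of these data known.

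Lists used 1 probe set per gene, the brightest, and are described by counts and medians with no set test. The genes named were all members, up to 5 per list with the smallest p, and the 10 most like the class II chains and Cd74. H2-DMb1, Lgmn, Cst3, Ciita, Nfya, Nfyb, Nfyc, Rfxank, Ctsd, Batf3, Xcr1, Thy1, Ly75, Itgae and Casq1 were named after their values were seen. So were the T cell genes in the closing section. Groups share replicate numbers in the titles, but same-numbered arrays of an age correlated at -0.05 to 0.25 in their deviations, over 0.1 in 4 of 11 pairs, so the numbers were not taken as pairs. Alternatives covered the scaling, an added 50, the filter, the variance model, array weights, the arrays fitted, a replicate block, the P6 split and leaving out each array.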

Additional observations from a re-analysis of the deposited data

How the results depend on the processing

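Each count of members called stayed within 1.5 times its value in every alternative run (304 of 306 counts over members and pathway genes; the other 2, pathway genes called from P6 to P23, were 4 in place of 9 with the stricter filter on signal, where fewer genes were tested). With the replicate number as a block, the members called were 7 of 7 from P6 to P23, 6 of 7 from P14 to P23, 4 and 5 of 7 from P6 to P14 in wild-type and transgenic skin, and 0 of 7 for each genotype contrast, so the block changed no call count; 6 of 11 pairs of arrays correlated best with their own number.

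No genotype difference of a member was called under any alternative, and 31 of 595 changed sign. At P6 Ctsh was -0.002 with quantile normalization, and with arrays 4 and 5 only it was -0.189, Ctss -0.034, H2-Ab1 0.022 and H2-Eb1 0.099, while H2-DMa was 0.019 with arrays 1 to 3 only. With each array's median subtracted H2-Ab1 was 0.002 at P6, Ctss -0.026 at P14, and Ctsh from P14 to P23 in wild type -0.097. Averaged over the ages Ctsh was 0.022 with array weights and 0.03 with P6 arrays 1 to 3, and H2-Eb1 0.018 with P6 arrays 4 and 5. With 1 array left out the ranges at P6 were -0.196 to 0.073 (H2-Ab1), -0.043 to 0.105 (Ctsh) and -0.024 to 0.131 (Ctss). At P14 they were -0.002 to 0.166 (H2-Eb1), -0.004 to 0.132 (Ctsh) and -0.031 to 0.16 (Ctss), at P23 -0.146 to 0.009 (H2-Ab1), and averaged -0.04 to 0.022 (Ctsh). Ctsh from P14 to P23 in wild type ran from -0.046 to 0.074. Ctsd from P6 to P23 in wild type was 0.012 with quantile normalization. The cause of these changes was not tested.

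Of 742 alternative values of the members' age differences, 723 kept direction and side of the threshold, 11 lost the call, 6 gained it (H2-Eb1 in 5 and H2-DMa in 1, both from P6 to P14) and 2 (both Ctsh) reversed. Beside the losses given above, H2-Ab1 from P6 to P14 in transgenic skin had adjusted p = 0.073 in limma with medians subtracted, 0.11 with only the groups compared and 0.16 with P6 arrays 4 and 5, where wild type had 0.078. Precision is set by the number of arrays, 3 to 5 per group, and signals of dim probe sets vary most. The correlations between members within groups moved by more than 0.1 in 16 of 21 pairs without transgenic P6 replicate 5.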

Other observations

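CD4+ T cells read class II, and the list of T and NK cell genes is wider than those cells. Of 15 T and NK cell genes on the array, 14 were below the filter on signal. At P23 the mean of these 14 was lower in transgenic than in wild-type skin for 8 and higher for 6, with a median difference of -0.36. Cd3e and Cd3g, both among the 8 lower genes, were picked after their values were seen and do not stand for the list. None of the 6 higher genes is shown by array. For Zap70, 1 of them, every transgenic P23 array read above every wild-type P23 array. Thy1, the tested gene of the list, was at -0.26 (SE 0.34) at P23 and was not called. Cd3e, a chain of the T cell receptor complex, is described by array. At P23 it read 7.0, 7.28 and 7.78 on the wild-type arrays and 5.98, 5.99 and 5.87 on the transgenic arrays. At P6 it read 5.28 to 5.66 in wild type and 5.04 to 5.57 in transgenic skin. With no filter the difference at P23, transgenic minus wild type, was -1.41 (SE 0.30, adjusted p = 0.08 in limma), which does not pass. Cd3g, another chain of the complex, was at -0.93 (SE 0.82, adjusted p = 1 in limma). It read 6.50 to 6.90 in wild type and 5.25 to 6.33 in transgenic skin.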
